A study of Mus musculus with 9 samples.

Results

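Windows 1 to 10 kb from gene starts are stretches of the mouse genome, nearly all 401 bp wide, in which chromatin immunoprecipitation signal was deposited for 6 libraries. Each window in the table is assigned to 1 or more genes. A window was taken here when its assigned gene was protein coding and its centre lay more than 1000 and at most 10000 bp from that gene's start (the lower end of a gene on the plus strand, the upper end on the minus strand). The rule used position and gene type, and no measured value. All but 1 of the 17641 windows lay under a peak of signal that the authors called in at least 1 library. The table itself thus depends on measured signal. The rule found 1469 of 17641 windows (8.33%), on 1311 genes. Of these, 540 lay upstream of the gene, 834 lay inside it, and 95 lay past the far end of a gene shorter than the distance. The other windows on protein-coding genes served for comparison: 11632 within 1 kb of the start (start windows) and 3290 more than 10 kb away (distal windows).

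The signal came from chromatin immunoprecipitation sequencing (ChIP-seq) of 2 mouse lines from pancreatic islet tumours, with an antibody that the labels give as recognising histone H3 trimethylated at lysine 9 (H3K9me3). AlphaTC1 is a line of glucagon-producing alpha cells, and betaTC3 is a line of insulin-producing beta cells. AlphaTC1 cells were collected 5 days after transduction with an empty vector (2 libraries) or with short hairpin RNA against Smndc1 (2 libraries, called the knockdown), and betaTC3 cells were not treated (2 libraries). So the empty-vector and knockdown groups share the cell line and the 5 days after transduction, and the betaTC3 group had no vector. The labels name no clone and do not say that replicates were separate cultures, so a p-value here reflects no more than the spread of these libraries, which may be technical. SMNDC1 is a splicing factor that binds methylated arginine. ChIP does not read its transcript, so the knockdown could not be checked here. The cell line labels could be checked at start windows of identity genes. Irx1, an alpha cell factor, held 970 to 1270.4 scaled reads in the 4 alphaTC1 libraries and 0.799 and 0 in betaTC3, and Pou3f4 held 284 to 366 against 1.6 and 1.9. Ins1, an insulin gene, held 354 and 314 in betaTC3 and at most 1.32 in alphaTC1, and Slc2a2, the glucose transporter of beta cells, held 97.4 and 129 against at most 2.39. Nkx6-1, a beta cell factor, held 697.5 to 1223 at its start in all 6 libraries.

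H3K9me3 is known as the mark of constitutive heterochromatin. It is written by SETDB1 and the SUV39H enzymes, bound by HP1 proteins, and silences repeats, zinc finger gene clusters and genes of other lineages. Active gene starts usually carry other marks, such as methylated lysine 4, which is not measured here. The libraries labelled H3K9me3 go against this background: their signal was highest at gene starts and, for Irx1, Pou3f4, Ins1 and Slc2a2, in the line that the gene marks. Values are therefore given as signal of these libraries, and whether the antibody label holds was not tested. The stretch around a start is also where many genes keep further promoters and nearby enhancers: a window inside a gene can lie on a further start of the same gene, and a window upstream can lie on a neighbour's start. In mammals many gene starts lie in CpG islands, stretches rich in the dinucleotide CG.

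The 7 promoters below, of 300 bases each (250 before and 50 after a start listed in RefSeq, GRCm38.p6, the build of the windows), lie under members by at least 150 bp. They show what kind of DNA some members cover when they lie away from the deposited gene start. They are printed 5′ to 3′ on the gene's own strand, in lower case with every CG in capitals. Among members with such a promoter, they are those with the largest change in each direction between the cell lines, upstream and inside the gene, the highest in level, and the one in a list of islet genes.
Ccdc71: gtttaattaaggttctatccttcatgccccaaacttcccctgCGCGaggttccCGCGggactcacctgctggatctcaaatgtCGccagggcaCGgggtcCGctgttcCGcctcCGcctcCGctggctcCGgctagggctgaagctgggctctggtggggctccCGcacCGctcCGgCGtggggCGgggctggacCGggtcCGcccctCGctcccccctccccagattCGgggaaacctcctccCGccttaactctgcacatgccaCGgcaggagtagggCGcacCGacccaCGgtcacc
Gm33099: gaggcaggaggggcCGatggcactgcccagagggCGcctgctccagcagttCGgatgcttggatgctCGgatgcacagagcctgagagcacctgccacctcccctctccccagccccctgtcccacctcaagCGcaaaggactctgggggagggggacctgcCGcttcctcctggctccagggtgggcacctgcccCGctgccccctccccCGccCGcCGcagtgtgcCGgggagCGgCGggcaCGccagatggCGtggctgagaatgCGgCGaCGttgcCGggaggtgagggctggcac
Rsrc1: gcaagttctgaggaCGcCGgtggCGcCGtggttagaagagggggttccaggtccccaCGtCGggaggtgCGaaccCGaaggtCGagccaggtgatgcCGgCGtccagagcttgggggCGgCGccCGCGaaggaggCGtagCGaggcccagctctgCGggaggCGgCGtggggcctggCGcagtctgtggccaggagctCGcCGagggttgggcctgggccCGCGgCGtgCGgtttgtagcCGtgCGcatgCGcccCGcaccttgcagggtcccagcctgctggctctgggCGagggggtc
Grin2d: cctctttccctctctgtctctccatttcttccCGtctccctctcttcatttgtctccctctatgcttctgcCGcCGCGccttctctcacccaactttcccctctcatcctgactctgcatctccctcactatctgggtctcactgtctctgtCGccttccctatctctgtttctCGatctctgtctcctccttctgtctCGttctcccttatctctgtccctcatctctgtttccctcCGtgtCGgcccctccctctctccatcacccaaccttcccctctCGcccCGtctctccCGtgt
Vwa3b: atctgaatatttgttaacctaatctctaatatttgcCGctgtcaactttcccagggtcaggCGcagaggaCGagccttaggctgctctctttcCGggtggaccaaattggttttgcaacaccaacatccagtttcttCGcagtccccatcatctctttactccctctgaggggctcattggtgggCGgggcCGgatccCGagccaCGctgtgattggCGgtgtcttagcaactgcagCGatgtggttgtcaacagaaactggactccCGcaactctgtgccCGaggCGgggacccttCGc
Eif5a: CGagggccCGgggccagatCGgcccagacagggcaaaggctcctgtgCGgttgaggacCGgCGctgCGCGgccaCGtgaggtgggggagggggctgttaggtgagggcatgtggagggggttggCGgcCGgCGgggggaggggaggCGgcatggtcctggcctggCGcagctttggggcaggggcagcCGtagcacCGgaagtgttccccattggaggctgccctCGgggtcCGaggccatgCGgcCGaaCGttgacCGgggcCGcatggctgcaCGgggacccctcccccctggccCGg
Foxa2: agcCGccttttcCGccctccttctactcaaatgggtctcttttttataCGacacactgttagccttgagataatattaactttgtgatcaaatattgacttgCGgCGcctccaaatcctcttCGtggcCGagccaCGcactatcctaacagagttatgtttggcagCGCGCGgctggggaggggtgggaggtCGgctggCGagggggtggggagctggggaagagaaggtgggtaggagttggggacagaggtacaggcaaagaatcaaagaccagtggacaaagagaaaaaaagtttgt
The first 3 lie under upstream members. The Ccdc71 promoter (chr9:108452252-108452551, plus strand) is a listed start of the gene itself, under a window 7948 bp before the deposited start, and holds 25 CG dinucleotides, 67.7% G or C. The Gm33099 promoter (chr11:98334204-98334503, plus strand) lies under a window assigned to Neurod2, 4904 bp before that gene's start, with 19 CG dinucleotides, 71.7% G or C. The Rsrc1 promoter (chr3:66985717-66986016, plus strand) lies under a window 4286 bp upstream of Shox2, with 32 CG dinucleotides, 72.7% G or C. The other 4 are listed starts of the assigned gene under windows inside it, away from its deposited start. They belong to Grin2d (chr7:45866632-45866931, minus strand; 12 CG dinucleotides, 56% G or C), Vwa3b (chr1:37029063-37029362, plus strand; 15 CG dinucleotides, 54.7% G or C), Eif5a (chr11:69920581-69920880, minus strand; 25 CG dinucleotides, 74% G or C) and Foxa2 (chr2:148045415-148045714, minus strand; 13 CG dinucleotides, 51.7% G or C).

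A RefSeq promoter overlapped 77 of the 1433 members on chromosomes of the promoter table by 150 bp or more. These 77 promoters had a median of 65.3% G or C and a median ratio of observed to expected CG of 0.74. The 32851 promoters of the whole table had medians of 52.7% and 0.38, and those under start windows 66.3% and 0.81. The 8 short motifs searched, on both strands, do not contain each other. The GC box GGGCGG was present in 66.2% of the members' promoters, in 70.5% of those under start windows and in 35.7% of all promoters. CCAAT was present in 22.1% of the members' promoters, 27.6% of those under start windows and 37.4% of all. In the same order, TATAAA was in 3.90%, 3.74% and 13.6%, and CAGATG in 13.0%, 8.41% and 17.2%. For TAATTA the shares were 1.30%, 1.33% and 5.29%, for TGCTGA 11.7%, 13.9% and 19.5%, and for TGACGT 5.19%, 9.87% and 7.51%. TGTTTAC was in none of the 77 promoters, against 1.80% of those under start windows and 3.65% of all promoters. Among 77 promoters the small shares rest on very few promoters, and no difference between these shares was tested.

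The signal is given in scaled reads: whole reads multiplied by 1 scaling factor per library. The reads in windows numbered between 4530066 and 9924487 per library, and 3 reads, the limit that a count of 0 allows, came to between 2.396 and 4.19 scaled reads. Counting intervals and these floors cover counting error only. The signal of all 6 libraries was highest at gene starts. The median start window held between 379.8 and 581 scaled reads in the 6 libraries. The median member inside a gene held 93.3 and 96.8 in empty-vector libraries, 82.4 and 94.3 in knockdown libraries, and 124 and 134 in betaTC3, so both betaTC3 libraries were the higher ones. Window by window, members inside genes did not lean that way with these scaling factors. Their median log2 change from the empty vector to betaTC3 was -0.06, with 432 of 834 below 0. The median upstream member held 47.7 and 47.9 in empty-vector libraries, 45.4 and 43.3 in knockdown libraries, and 47.9 and 54.2 in betaTC3, and past the gene end the median lay between 42.3 and 46.6. Distal windows had a median between 33.4 and 38.1. Members thus stood between start and distal windows in every library, with those inside genes above those upstream, and they held between 4.32% and 4.64% of all scaled reads. Members with 0 reads were more frequent in alphaTC1: inside genes 63 and 56 in empty-vector libraries and 85 and 102 in knockdown libraries, against 16 in both betaTC3 libraries. Upstream the numbers were 43, 36, 39 and 51 in alphaTC1 against 12 and 14 in betaTC3. The whole table leaned the same way: 1371 windows had 3 reads or fewer in every alphaTC1 library and 683 in both betaTC3 libraries. The knockdown libraries also held the fewest reads in windows, 4530066 and 4800860, and the part of depth was not tested.

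**Figure D1:**
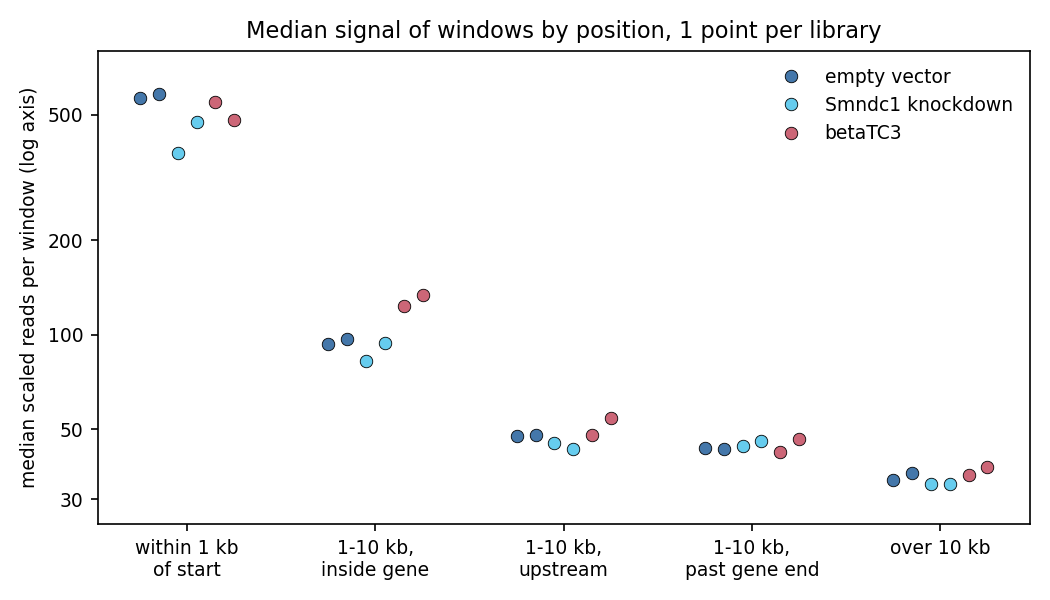
Median scaled reads (y axis, log scale) of windows at each position relative to the gene start (x axis), with 1 point per library for the 6 libraries. In every library the median falls from start windows (379.8 to 581) to members inside genes (82.4 to 134), and members upstream (43.3 to 54.2) stand above distal windows (33.4 to 38.1).

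Members inside genes were strongest near the start, and those upstream were not. Inside genes, the median level (mean of the 6 libraries) was 337 scaled reads for 280 members at 1 to 2 kb, 67.7 for 304 at 2 to 5 kb, and 55.1 for 250 at 5 to 10 kb. Upstream, the medians were 36.6 for 84 members, 49.3 for 236 and 53.4 for 220. Of members inside genes, 277 belonged to a gene that also had a start window, and their median level was 37.6. The 557 whose gene had no start window in the table had a median of 225. Both values are descriptions of windows that differ in position, and were not tested.

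Members inside genes near a RefSeq-listed start of the same gene had levels close to those of start windows. RefSeq listed a start of the assigned gene within 1 kb of 281 of 815 members inside genes on the table's chromosomes (34.5%), and these had a median level of 449, against 544 for start windows at a listed start of their gene. For 60 of the 281 that listed start lay within 1 kb of the deposited start, and for the other 221 farther off. For 157 another start of the gene was listed within 1 kb of the deposited one, and for 124 none was. The 508 with no start of any gene within 1 kb (62.3%) had a median of 48.0, and 26 near another gene's start had 309. Upstream, 16 of 523 lay near a listed start of their own gene (median 91.0) and 47 near another gene's (182), while 460 (88.0%) lay near none (48.4). The windows near a listed start sat on the same side of it as start windows do. Of the 281, the centre lay after the listed start in 233 (82.9%), by a median of 254 bp over all 281. Start windows at a listed start lay after it in 7040 of 8287 (85.0%), with a median of 237 bp. The deposited start also differed from the start in the table's own gene location for 286 members. By that location 41 members would lie within 1 kb and 48 beyond 10 kb.

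**Figure D2:**
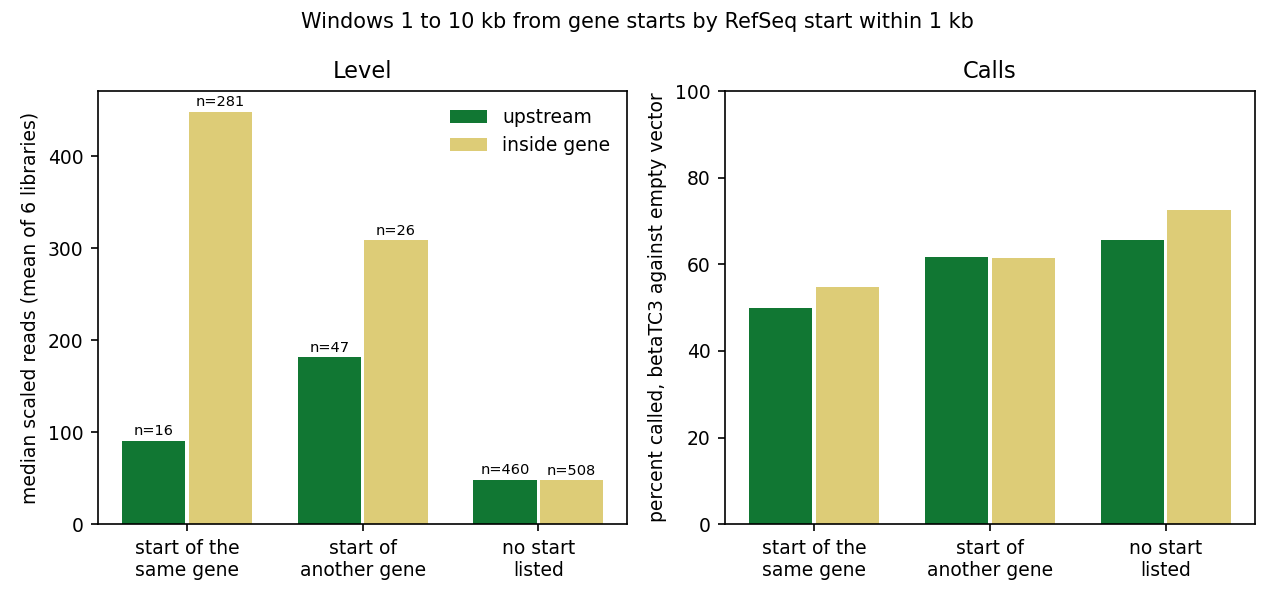
Members upstream (green) and inside the gene (tan), by whether RefSeq lists a start of the same gene, of another gene or of no gene within 1 kb; numbers above bars in the left plot are windows. The left plot gives the median level in scaled reads (449 inside at the gene's own start, 48.0 at none) and the right plot the percentage called between betaTC3 and the empty vector (54.8% and 72.4%). Start windows, not drawn, had the same order of percentages called (44.9% and 55.2%).

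The strongest upstream member by mean level was that of Cpeb4, a regulator of messenger RNA polyadenylation, 1108 bp before its start (chr11:31870903-31871303). It held 1887 and 2041 (empty vector), 1384 and 1723 (knockdown) and 1049 and 1041 (betaTC3) scaled reads, lower in betaTC3 by 0.91 ± 0.18 (SE) on the log2 scale (adjusted p = 0.00453 by limma). Without either betaTC3 library or the second empty-vector library the adjusted p was 0.0569 to 0.0662. Scrt1, a neuronal repressor, held 1403 and 1607 (empty vector), 957 and 1226 (knockdown) and 1271 and 1322 (betaTC3) 1221 bp upstream (chr15:76523520-76523920). Its empty-vector libraries were the highest and its knockdown libraries the lowest, and it was not called between the cell lines (adjusted p = 0.359 by limma). Slx4, a scaffold of DNA repair nucleases, and Adcy6, an adenylyl cyclase, followed with means of 1395 and 1381 in the empty vector, but by the table's own gene location their windows lie 264 and 413 bp from a start. Inside genes, Sub1, a transcriptional coactivator, was highest at 1829.7 and 1707 (empty vector), 927 and 1245 (knockdown) and 2749 and 2056 (betaTC3) (chr15:11995462-11995862, 1321 bp after the start). Ywhaz, a phosphoserine-binding adaptor protein, held 1534 and 1325 (empty vector), 827 and 1174 (knockdown) and 3109.7 and 1748 (betaTC3), and Cdkn2c, an inhibitor of cyclin-dependent kinases, 1499 and 1657 (empty vector), 1185 and 1723 (knockdown) and 2198 and 1920.4 (betaTC3). In all 3 windows both betaTC3 libraries were above the other 4, but none passed the test (adjusted p = 0.161 for Sub1, 0.1 for Ywhaz and 0.2 for Cdkn2c by limma). With DESeq2, edgeR and centred libraries each was called higher in betaTC3, with log2 changes between 0.55 and 0.98. Psmf1, an inhibitor of the proteasome, held 1938 and 2004 (empty vector), 1387 and 1688 (knockdown) and 1299 and 1334 (betaTC3) and was lower in betaTC3 by 0.58 ± 0.17 (SE) (adjusted p = 0.0274), a call lost with a replicate block (0.0607) and without any 1 of the 4 libraries compared (adjusted p = 0.118 to 0.193 by limma).

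Signal at members differed widely between the cell lines. Of 540 upstream members, 351 (65.0%) were called at an adjusted p below 0.05 between betaTC3 and the empty vector by limma, where 55.2% of all windows were called. Of these, 145 were higher in betaTC3 and 206 lower, where 22.1% of all windows were higher and 33.2% lower. Of 834 members inside genes, 547 (65.6%) were called, 261 higher and 286 lower. Past the gene end 61 of 95 were called, 28 higher and 33 lower. Over all members, 434 were higher and 525 lower, so the 65.3% called stood between the 46.6% of start windows and the 74.8% of distal windows. The direction of the whole depended on the scaling. DESeq2's size factors moved the median of all windows from -0.13 to 0.10 on the log2 scale, and that of the members from -0.15 to 0.08. With DESeq2 the split inside genes was 339 higher against 222 lower, and upstream 155 against 154.

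A change of more than 3 on the log2 scale was called upward in betaTC3 in 154 members inside genes, 79 upstream and 14 past the end. Downward it was called in 66, 55 and 11. Of all windows, 11.8% passed upward and 7.76% downward. The share called was larger among weak members, but this split is not independent of the change. The mean is taken over the libraries of both lines, so a low level in either line lowers it. A weak window also needed a called peak in some library to enter the table. The split therefore cannot show that weak members change more often. Inside genes, 80.4% of 403 members with a mean under 100 scaled reads were called, 184 higher and 140 lower, against 51.7% of 431 members with at least 100, 77 higher and 146 lower. Upstream the shares were 66.6% of 359 and 61.9% of 181. Start windows showed the same order, 77.1% under 100 and 40.5% above, as did distal windows, 78.1% and 62.6%. The order is thus not particular to members. Members inside genes near a listed start of their gene were called in 54.8% of 281, against 72.4% of 508 near no listed start. The same order was seen at start windows, 44.9% and 55.2%, and at distal windows, 61.7% and 76.4%, so it is not particular to members either. These groups inside genes also differed in level, with medians of 449 and 48.0 scaled reads, so this split shares the limit given above for level. The differences between these shares were not tested.

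The upstream members with the largest rise in betaTC3 were nearly or wholly without reads in alphaTC1. The window 8616 bp before N6amt1, a methyltransferase gene (chr16:87345369-87345769), held 0 and 0 (empty vector), 3.58 and 0 (knockdown) and 332 and 339.7 (betaTC3) scaled reads, at least 101-fold higher than the floor of 3 reads per library (log2 change 8.40 ± 0.66 (SE), adjusted p = 7.9e-05 by limma). The gene's own start window was not called, with 282 and 359.5 (empty vector), 193 and 277 (knockdown) and 252 and 250.3 (betaTC3) (log2 change -0.34, adjusted p = 0.218). Sp8, a zinc finger factor of limb development, had 0 in all 4 alphaTC1 libraries and 215 and 214 in betaTC3 at 9465 bp upstream (chr12:118836664-118837064), at least 64.6-fold higher. Ccdc71, whose listed start under this window is printed above, held 1.32 and 0 (empty vector), 3.58 and 0 (knockdown) and 311 and 339.7 (betaTC3) (chr9:108452379-108452779), a ratio of pooled reads of 610.4 with an exact 95% counting interval of 109 to 24139.7. Its start window moved the other way, with 1325 and 1314 (empty vector), 818 and 1210.3 (knockdown) and 851 and 828 (betaTC3) (log2 change -0.65, adjusted p = 0.033 by limma). Sdk2, an adhesion molecule of synapses, also rose upstream, at chr11:114072416-114072816, from 0 and 1.78 with the empty vector to 295 and 306, while its start window was lower in betaTC3 (log2 change -1.22). Mmp23, a metalloproteinase, held 165 and 167 in betaTC3 (chr4:155654608-155655008, at least 49.9-fold higher), and Map10, a microtubule-associated protein, 165 and 154 (chr8:125667892-125668292, at least 48-fold). Both had 0 reads in the empty-vector libraries.

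In the 6 upstream members with the largest fall in betaTC3, all 4 alphaTC1 libraries stood above both betaTC3 libraries. The window 3626 bp before 6330403K07Rik (chr11:71036939-71037339) held 160.2 and 176 (empty vector), 143 and 145 (knockdown) and 0 and 0 (betaTC3), at least 64-fold lower in betaTC3 (log2 change -7.40 ± 0.23 (SE), adjusted p = 6.3e-06 by limma). Rgn, which codes for the calcium-binding protein regucalcin, held 115 and 156 (empty vector), 128 and 113 (knockdown) and 0 and 0 (betaTC3) at 1356 bp (chrX:20548231-20548631), at least 51.7-fold lower. Gm14409 (chr2:177271898-177272298) held 134 and 157 (empty vector), 107 and 116 (knockdown) and 2.4 and 0 (betaTC3). Hr, a corepressor gene known from hairless mice, differed within alphaTC1 (1022 bp, chr14:70552465-70552865). By the table's gene location it lies 453 bp from a start. Its window held 177 and 201 (empty vector), 50.2 and 90.8 (knockdown) and 3.99 and 0.952 (betaTC3), so both knockdown libraries stood below both empty-vector libraries, with a log2 change of -1.47 ± 0.50 (SE) that did not pass (adjusted p = 0.122 by limma). Between the cell lines it fell by 5.93 on the log2 scale. Ntn3, a netrin guidance cue, held 205 and 222 (empty vector), 117 and 141 (knockdown) and 2.4 and 3.81 (betaTC3) (chr17:24211986-24212386). Stpg2 held 111 and 109 (empty vector), 88.4 and 102 (knockdown) and 0.799 and 1.9 (betaTC3) (chr3:139198255-139198655), and its start window was lower in betaTC3 too (log2 change -2.38).

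Inside genes, the largest rise was in Axin2, a scaffold and target of Wnt signalling, 1012 bp after its start (chr11:108921161-108921561). The window held 1.32 and 0 (empty vector), 0 and 0 (knockdown) and 1027 and 665 (betaTC3), and the log2 change was 9.08 ± 0.46 (SE) (adjusted p = 1.36e-05 by limma). Prkar1a, the regulatory subunit of protein kinase A, also on chromosome 11, held 3.97 and 0 (empty vector), 0 and 0 (knockdown) and 1475 and 915 (betaTC3) near a listed start of the gene 121 bp away (chr11:109651263-109651663). These are the only 2 members in a run of 17 neighbouring windows of chromosome 11 where no alphaTC1 library has more than 3 reads, so loss of that DNA from alphaTC1 and loss of signal cannot be told apart there. Mafa, a transcription factor of mature beta cells, held 11.9 and 0 (empty vector), 0 and 0 (knockdown) and 1726 and 1269 (betaTC3) (chr15:75746583-75746983) (log2 change 8.69 ± 1.06 (SE), adjusted p = 0.000561 by limma). All its empty-vector reads came from 1 library, and the log2 change was 6.84 without the second empty-vector library and 10.53 without the first. Speg, a kinase of striated muscle, held 0 and 1.78 (empty vector), 0 and 0 (knockdown) and 625 and 545 (betaTC3) at 7060 bp (chr1:75382157-75382557), 243 bp from a listed start of the gene. Psd, an exchange factor for a small GTPase, had 0 in all 4 alphaTC1 libraries and 525 and 222 in betaTC3 (chr19:46317583-46317983), at least 112-fold higher.

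The largest fall inside a gene was in Gcg, the glucagon gene, 1729 bp after its start (chr2:62481721-62482121). The window held 340.3 and 352 (empty vector), 352 and 421 (knockdown) and 0 and 0 (betaTC3) scaled reads, at least 132-fold lower in betaTC3 (log2 change -8.44 ± 0.21 (SE), adjusted p = 5.41e-06 by limma). A pair of amino acid transporter genes of chromosome 15 followed. Slc38a4 held 397 and 444 (empty vector), 327 and 422 (knockdown) and 0.799 and 0 (betaTC3) (chr15:97054503-97054903), and Slc38a1 held 506 and 499 (empty vector), 368 and 482 (knockdown) and 1.6 and 0 (betaTC3) (chr15:96641028-96641428). Aox4, an aldehyde oxidase, held 399.8 and 449 (empty vector), 307 and 323 (knockdown) and 0 and 1.9 (betaTC3) at 5263 bp (chr1:58215460-58215860). Maf, a transcription factor related to Mafa, held 994 and 969 (empty vector), 726 and 868 (knockdown) and 7.99 and 12.4 (betaTC3) (chr8:115706437-115706837), 96.4-fold lower in betaTC3, so Maf and Mafa changed in opposite directions. Lrrc14 held 377 and 389.7 (empty vector), 315 and 342 (knockdown) and 3.99 and 4.76 (betaTC3) (chr15:76715543-76715943, 5105 bp). Its start window did not follow, with 1303 and 1396 (empty vector), 949.6 and 1118 (knockdown) and 1188 and 1272 (betaTC3) (log2 change -0.13, adjusted p = 0.505 by limma). In all 6 of these windows the knockdown libraries stayed far above those of betaTC3.

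**Figure D3:**
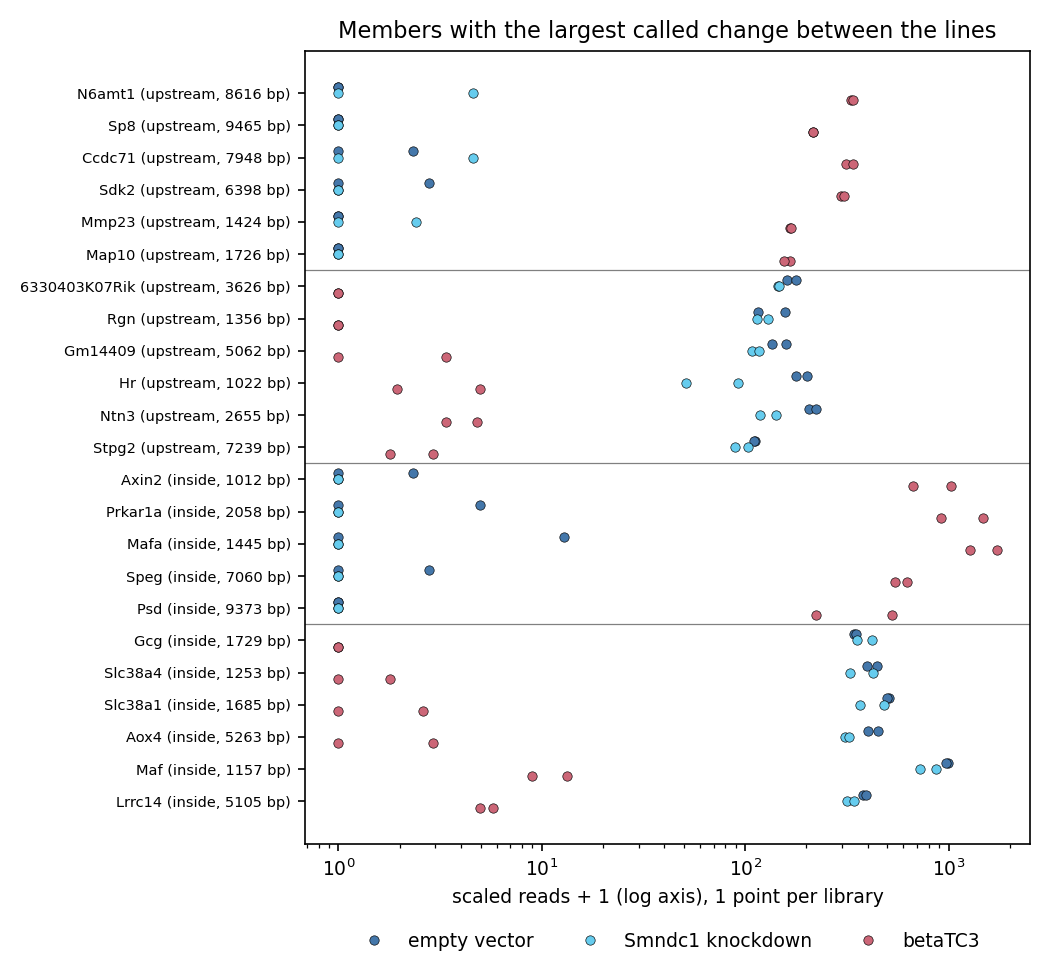
Scaled reads plus 1 (axis in log scale) in each of the 6 libraries for 23 members among those with the largest changes between betaTC3 and the empty vector, in each direction upstream and inside the gene. Windows were kept for this choice with at least 100 scaled reads in both libraries of the higher group; in each window all 4 alphaTC1 points lie on 1 side of both betaTC3 points, and in Hr the knockdown points (50.2 and 90.8) also lie below those of the empty vector (177 and 201).

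Members on beta cell genes were mostly higher in betaTC3. Of 5 on such genes, 4 were higher, none lower and 1 not called, where 22.1% of all windows were higher and 33.2% lower. Of these 4, 2 lay on the same gene, Glp1r. The log2 changes of the 5 had a median of 5.76, or 4.24 with windows at 0 set to the floor of 3 reads. The median over all members was -0.15, and over all windows -0.13. Gcg, described above, and Etv1 are on the list of alpha cell genes. Etv1 was higher in betaTC3, at 303 and 339 (empty vector), 284 and 376 (knockdown) and 490.3 and 549 (betaTC3) (log2 change 0.69 ± 0.17 (SE), adjusted p = 0.0137 by limma), and its adjusted p was 0.0589 to 0.111 with any 1 of the 4 libraries left out. Glp1r, the receptor of the incretin hormone GLP-1, had 2 upstream members. The nearer (8616 bp) held 0 in all 4 alphaTC1 libraries and 55.1 and 70.4 in betaTC3, and the farther (9563 bp) held 1.32 and 1.78 (empty vector), 0 and 4.19 (knockdown) and 137 and 137 (betaTC3). Pdx1, the master factor of the pancreas and beta cell, held 0 and 1.78 (empty vector), 5.97 and 2.8 (knockdown) and 31.9 and 39 (betaTC3) at 5808 bp upstream (chr5:147263951-147264351), low beside its start window at 5.3 and 0 (empty vector), 0 and 0 (knockdown) and 1829 and 1840.5 (betaTC3). The Nkx6-1 member past the gene end held 14.6 and 11.5 (empty vector), 27.5 and 26.6 (knockdown) and 5.59 and 16.2 (betaTC3), with the betaTC3 and empty-vector libraries overlapping. The numbers called in the beta cell list were the same with DESeq2, edgeR and centred libraries. The Nkx6-1 window was called lower without the second betaTC3 library (log2 change -1.08, adjusted p = 0.0346 by limma) and had the opposite sign without the first.

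The islet receptor list held 4 members, 2 of Glp1r and 2 of the adrenergic receptor gene Adra2a. All 4 were higher in betaTC3, where 22.1% of all windows were higher and 33.2% lower. The Adra2a window 1635 bp inside the gene (chr19:54045586-54045986) held 6.62 and 0 (empty vector), 0 and 0 (knockdown) and 869.7 and 931 (betaTC3) (log2 change 8.35 ± 0.85 (SE), adjusted p = 0.000246 by limma). Its log2 change was 6.89 without the second empty-vector library, where it had no reads, and 9.81 without the first. Glp1r stands in the beta cell list too, so its 2 windows are the same ones counted there. Of 8 members on genes of all endocrine cells, 4 were higher and 3 lower, or 4 and 2 with DESeq2. Fev, a serotonergic and endocrine progenitor factor, fell inside the gene (chr1:74882328-74882728), with 72.8 and 100.3 (empty vector), 66.9 and 95 (knockdown) and 0 and 1.9 (betaTC3). Its start window was not called, at 90 and 130.5 (empty vector), 124 and 144 (knockdown) and 167 and 158 (betaTC3) (adjusted p = 0.0617 by limma). Foxa2, a pioneer factor of endoderm and islets, had 4 members and they disagreed in direction. The window at an inner listed start, 1490 bp inside (chr2:148045279-148045679) and on the promoter printed above, held 732 and 853 (empty vector), 578 and 667 (knockdown) and 1144 and 1199 (betaTC3) (log2 change 0.57, adjusted p = 0.017 by limma, and 0.0616 to 0.16 with any 1 of the 4 libraries left out). The upstream window (1838 bp, chr2:148048607-148049007) held 1.32 and 0 (empty vector), 0 and 0 (knockdown) and 40.7 and 47.6 (betaTC3) and was higher in betaTC3. Past the gene end, one window (chr2:148039727-148040127), 421 bp from the start of the noncoding gene 9030622O22Rik, held 475 and 573 (empty vector), 454 and 444 (knockdown) and 0.799 and 2.85 (betaTC3), lower in betaTC3 (log2 change -7.63). The other (chr2:148041851-148042251) was low and fell further, from 15.9 and 16 with the empty vector to 2.4 and 6.66 (log2 change -1.73). Its call was lost with DESeq2 (adjusted p = 0.0762) and, by limma, without the first betaTC3 or either empty-vector library (0.0619 to 0.0695).

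Other lists had few members, where 22.1% of all windows were called higher and 33.2% lower. Of 6 on exocytosis genes, 1 was higher and 1 lower: Syt7, a calcium sensor of secretory granules, held 1.32 and 2.66 (empty vector), 8.36 and 4.19 (knockdown) and 35.9 and 56.1 (betaTC3) upstream, and Unc13a, a vesicle priming factor, held 38.4 and 62.1 (empty vector), 41.8 and 48.9 (knockdown) and 7.99 and 8.56 (betaTC3) inside the gene. Of 3 members on neuronal adhesion genes, both of Sema3a, a repulsive guidance cue, fell. The one inside the gene (chr5:13399732-13400132) held 373 and 426 (empty vector), 397 and 411 (knockdown) and 4.79 and 8.56 (betaTC3) (log2 change -5.75 ± 0.26 (SE), adjusted p = 1.02e-05 by limma), and the one upstream had a log2 change of -3.11. By the table's gene location both lie over 10 kb from its start, at 274518 and 269543 bp. Scn9a, a sodium channel, was the 1 of 2 ion channel members called, with a log2 change of -1.91 (adjusted p = 0.0517 without the first empty-vector library, by limma). Etv4 was the 1 of 2 members of other islet cell types called (log2 change -1.12), and its call was lost with DESeq2, edgeR and centred libraries and with any 1 of the 4 libraries left out (adjusted p = 0.0543 to 0.148). Both called windows of 3 on growth genes were of Ccnd1, cyclin D1, and lower, with 183 and 233 (empty vector), 247 and 219 (knockdown) and 96.6 and 91.4 (betaTC3) inside the gene (log2 change -1.13) and a log2 change of -1.83 upstream. Dnmt1, the maintenance DNA methyltransferase and the only heterochromatin gene with a member, was lower at an inner listed start of the gene, at 994 and 1089 (empty vector), 721 and 802 (knockdown) and 728 and 644 (betaTC3) (log2 change -0.60, adjusted p = 0.0109 by limma), a call lost without either empty-vector library or the second betaTC3 library (0.0606 to 0.111). The splicing list had 1 member, Ptbp2, which was called higher with DESeq2 and edgeR but not with limma. DESeq2, edgeR and centred libraries each called 1 more member higher in the exocytosis, neuronal adhesion and growth lists.

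Markers of other pancreatic cells were few among the members, and they did not move in 1 direction. Of all windows, 55.2% were called. On acinar and duct genes 1 of 2 was called, Notch1, a receptor of progenitors and duct cells, at 0 and 0.888 (empty vector), 0 and 2.8 (knockdown) and 86.2 and 105 (betaTC3). By the table's gene location its window lies 13985 bp from the start. In the mesenchymal gene Col1a1 the member at 5217 bp was higher in betaTC3 (log2 change 2.48) and that at 1407 bp lower (-1.59). Both calls rested on single libraries: the first was lost without either betaTC3 or the second empty-vector library (adjusted p = 0.063 to 0.122 by limma), the second without the first empty-vector library (0.0517). The 1 immune member, past the end of the lysozyme gene Lyz2, held 5.3 and 4.44 (empty vector), 1.19 and 0 (knockdown) and 79.9 and 104 (betaTC3). These values are antibody signal and not expression, and the part of other cells in any result was not tested.

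The families below held 4 to 38 members each, where 55.2% of all windows were called. All 4 members on protocadherin genes, which code for neuronal adhesion molecules, were higher in betaTC3, with a median log2 change of 5.95. Pcdh17 held 0 and 3.55 (empty vector), 2.39 and 0 (knockdown) and 504 and 584 (betaTC3) (chr14:84445168-84445568), and Pcdh10 held 3.97 and 1.78 (empty vector), 5.97 and 5.59 (knockdown) and 616 and 712 (betaTC3) (chr3:45379474-45379874). Pcdh1 rose upstream, from 5.3 and 3.55 with the empty vector to 99 and 130.4, while its start window was lower in betaTC3 (log2 change -1.14). The 4 protocadherin calls held with DESeq2, edgeR and centred libraries, and that of Pcdh1 was lost without either betaTC3 library (adjusted p = 0.0768 to 0.0866 by limma) and with a pseudocount of 0.1 (0.0852). Of 30 zinc finger members, 4 were higher and 13 lower, a share called near that of all windows, with a median of -0.33, where DESeq2, edgeR and centred libraries called 7 higher. Zfp536 had the largest fall, at 357 and 366 (empty vector), 222 and 233 (knockdown) and 6.39 and 2.85 (betaTC3) (chr7:37770438-37770838, log2 change -6.09). Zfp36l1, which promotes decay of messenger RNA, rose from 0 and 0 with the empty vector to 34.3 and 45.7. Zfp385a fell from 37.1 and 37.3 to 0 and 1.9 near an inner listed start (adjusted p = 0.0666 without the first betaTC3 library, by limma). Of 38 solute carrier members, 13 were higher and 14 lower, with a median of 0.07; DESeq2 called 16 higher and 11 lower. Slc7a3, a transporter of cationic amino acids, held 0 in all 4 alphaTC1 libraries and 129 and 139.9 in betaTC3 (chrX:101084799-101085199, at least 40.6-fold higher), the reverse of Slc38a1 and Slc38a4. Of 5 members on imprinted genes, Asb4 (105 and 109 in betaTC3 against 1.32 and 8.88 with the empty vector) and Magel2 (73.5 and 73.3 against 7.94 and 13.3) were higher. The Asb4 call was lost without either betaTC3 or the first empty-vector library (adjusted p = 0.0655 to 0.12 by limma) and with a pseudocount of 0.1 (0.0936). Ddc, the enzyme that makes dopamine and serotonin, was lower, with 624 and 651 (empty vector), 365 and 458 (knockdown) and 479 and 474 (betaTC3) and a log2 change of -0.42 at an adjusted p of 0.049 by limma. That call was lost with DESeq2 (0.21), with a replicate block (0.0633) and without the intensity trend, with a pseudocount of 8, with a filter at 20 scaled reads or with any 1 of the 4 libraries left out (0.051 to 0.227).

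Several members on 1 gene need not move together. In all, 138 genes had more than 1 member, and Foxa2 and Ltbp4 had the most, 4 each. Ltbp4, a matrix protein that binds latent TGF-beta, changed direction along the gene. Upstream it held 14.6 and 21.3 (empty vector), 9.56 and 22.4 (knockdown) and 56.7 and 71.4 (betaTC3), and 1453 bp inside it held 0 and 0.888 (empty vector), 2.39 and 2.8 (knockdown) and 47.1 and 35.2 (betaTC3). The window 4512 bp inside held 55.6 and 74.6 (empty vector), 82.4 and 78.3 (knockdown) and 111 and 102 (betaTC3), and that at 7010 bp held 181 and 186 (empty vector), 215 and 228 (knockdown) and 83.9 and 111 (betaTC3). The log2 changes were 1.79, 4.93, 0.71 and -0.92 in that order, all called by limma, so the betaTC3 libraries were above those of the empty vector in 3 windows and below in the one farthest inside. The calls upstream and at 4512 bp were lost without either betaTC3 or the first empty-vector library (adjusted p = 0.0793 to 0.151). In 5530401A14Rik, by contrast, the 3 members inside the gene were all higher in betaTC3, by between 4.57 and 5.05 on the log2 scale, and so was its start window (log2 change 4.20). These windows lie within 10 kb of each other on 1 gene and are not replicates of a change.

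A member and the start window of the same gene could be compared in 610 pairs. The member was the weaker in 522 (85.6%), with a median level of 42.7 scaled reads against 489. The member was called between betaTC3 and the empty vector in 408 pairs (66.9%) and the start window in 303 (49.7%). These shares were near the 65.3% of all members and the 46.6% of all start windows, where 55.2% of all windows were called. Member and start window were called in the same direction in 162 pairs, 55 higher and 107 lower, and in opposite directions in 48. In 27 of these 48 the member was the higher one in betaTC3, in 21 the lower. Only the member was called in 198 pairs, only the start window in 93 and neither in 109. The part of level in these counts was not tested. Across the 610 pairs, which share libraries and chromosomes and are not independent, Pearson's r between the log2 changes was 0.34. Within positions r was 0.30 upstream, 0.36 inside and 0.46 past the end. For the knockdown against the empty vector it was -0.06.

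**Figure D4:**
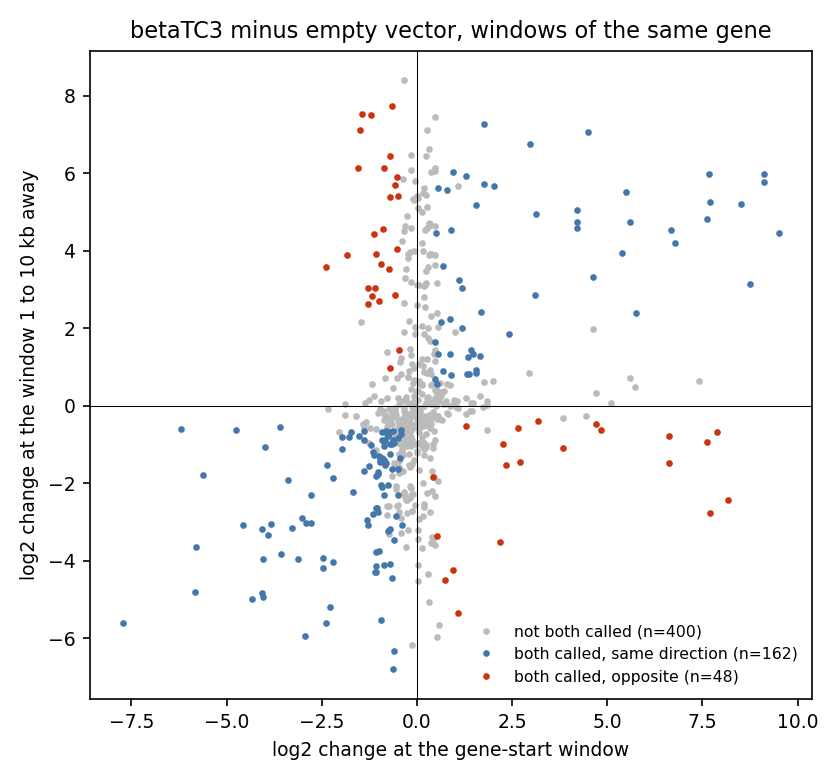
Log2 change between betaTC3 and the empty vector at the start window (x axis) and at the member of the same gene (y axis), 1 point for each of 610 pairs. Blue points are the 162 pairs called in the same direction, red points the 48 called in opposite directions and grey points the other 400; many grey points lie near 0 on the x axis and far from 0 on the y axis.

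Genes with opposite calls, chosen for this account after their values were seen, show how far the 2 positions can part. In Gabbr1, a subunit of the GABA-B receptor, the window 4685 bp inside (chr17:37050451-37050851) held 0 in all 4 alphaTC1 libraries and 117 and 158 in betaTC3. Its start window held 866 and 916 (empty vector), 571 and 683 (knockdown) and 333 and 294 (betaTC3). Pfas, an enzyme of purine synthesis, showed the reverse: the upstream window (chr11:69012089-69012489) held 306 and 359 (empty vector), 302 and 347 (knockdown) and 159.7 and 189 (betaTC3), and the start window 2.65 and 0.888 (empty vector), 0 and 1.4 (knockdown) and 507 and 519 (betaTC3). Pax2, a developmental factor of kidney and eye, held 3.97 and 5.33 (empty vector), 3.58 and 6.99 (knockdown) and 79.9 and 85.6 (betaTC3) upstream (chr19:44750137-44750537), and its start window 242 and 258 (empty vector), 164 and 239 (knockdown) and 71.1 and 68.5 (betaTC3). Barhl1, a homeobox gene of the nervous system, had a start window at 1.32 and 0.888 (empty vector), 0 and 0 (knockdown) and 455 and 419.7 (betaTC3). Its upstream member rose too, from 1.32 and 0 to 48.7 and 66.6, while the one 8201 bp inside fell from 26.5 and 39.1 to 3.19 and 4.76. In Slc29a1, a nucleoside transporter, and Arhgef1, a guanine nucleotide exchange factor, the member lay at an inner listed start of the gene. The Slc29a1 member (chr17:45595112-45595512) held 959 and 982 (empty vector), 594 and 732 (knockdown) and 645 and 612 (betaTC3), and its start window 3.97 and 7.1 (empty vector), 3.58 and 1.4 (knockdown) and 165 and 199.8 (betaTC3). The Arhgef1 member (chr7:24904340-24904740) held 446 and 517 (empty vector), 328 and 391 (knockdown) and 267 and 337 (betaTC3), and its start window 0 and 0 (empty vector), 0 and 0 (knockdown) and 224 and 246 (betaTC3). For both, the inner window carried the stronger signal in all 6 libraries, the start window was at or near 0 in alphaTC1, and the 2 positions changed in opposite directions. The calls at the inner windows were lost, with the changes still negative, with any 1 of the 4 libraries left out for Slc29a1 (adjusted p = 0.0617 to 0.0913 by limma), and for Arhgef1 with DESeq2 (0.0541) and without the first betaTC3 or either empty-vector library (0.0529 to 0.124).

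The other members whose promoters are printed above covered the range from no change to the largest. Grin2d, a subunit of the NMDA receptor, held 0 and 0 (empty vector), 2.39 and 0 (knockdown) and 351 and 188 (betaTC3) at the listed start (chr7:45866425-45866825), at least 81.4-fold higher in betaTC3 than with the empty vector. By the table's gene location it lies 11753 bp from the start. Vwa3b fell, with 412 and 383 (empty vector), 281 and 261 (knockdown) and 44.7 and 56.1 (betaTC3) (chr1:37029032-37029432, log2 change -2.96 ± 0.17 (SE), adjusted p = 1.98e-05 by limma). The window upstream of Neurod2, a neuronal factor, on the Gm33099 start, held 167 and 164 (empty vector), 135 and 161 (knockdown) and 28.7 and 37.1 (betaTC3) (chr11:98334352-98334752, log2 change -2.31). The window on the Rsrc1 start, upstream of the homeobox gene Shox2, held 720.2 and 807 (empty vector), 486 and 579 (knockdown) and 879 and 713 (betaTC3) (chr3:66985857-66986257), and Eif5a, a translation factor, 1774 and 1628 (empty vector), 1001 and 1421 (knockdown) and 1916 and 1319.9 (betaTC3) (chr11:69920574-69920974). Neither was called between the cell lines (adjusted p = 0.803 and 0.772 by limma), and the sign of both changes differed between settings.

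The authors called peaks in each library separately. Of start windows, 90.3% to 93.1% lay under a peak of each list. Of the 834 members inside genes, 595 and 628 lay under a peak of the empty-vector lists, 628 and 612 of the knockdown lists, and 642 and 667 of the betaTC3 lists. Of the 540 upstream, the numbers were 369 and 407, 413 and 408, and 361 and 370. The betaTC3 lists were thus the highest inside genes and among the lowest upstream. Every member lay under a peak of at least 1 list, as did all but 1 of the 17641 windows, so this is nothing particular to members. All 6 lists covered 459 members inside genes (55.0%), 240 upstream (44.4%) and 38 past the end, against 83.7% of start windows and 29.0% of distal windows. Both betaTC3 lists and no alphaTC1 list covered 154 inside, 87 upstream and 18 past the end. All 4 alphaTC1 lists and no betaTC3 list covered 84, 86 and 17. These are 18.5%, 16.1% and 18.9%, and 10.1%, 15.9% and 17.9%, where all windows had 11.9% and 9.60%. Start windows had 7.35% and 4.67%, and distal windows 22.2% and 21.9%. Both knockdown lists and neither empty-vector list covered 16 inside and 23 upstream, and the reverse held for 10 and 11 (1.92%, 4.26%, 1.20% and 2.04%). Of all windows, 1.72% and 0.748% had these patterns. The shares were 0.533% and 0.241% of start windows and 4.47% and 1.91% of distal windows. Upstream members were thus near distal windows in both shares.

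Few of these peaks reached the gene start, and members were chosen to lie more than 1000 bp from it. The contrast with start windows below thus follows largely from that choice. The peak over a member also covered the deposited start for 92 to 104 members inside genes per list (15.1% to 16.6%) and for 5 to 9 upstream (1.36% to 2.43%), against 85.6% to 88.9% of start windows. The median width of a peak over a member was 1166 to 1378 bp inside genes and 653 to 762 bp upstream, between the 1497 to 1763 bp at start windows and the 564 to 666 bp at distal windows. Peak scores were used only to split each list at its median −log10 q-value. The stronger part covered 294 to 310 members inside genes and 59 to 75 upstream per list.

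The change between the cell lines also followed chromosomes. Among members with at least 100 scaled reads on average, the median log2 change was -0.90 on chromosome 11 and -0.82 on chromosome 6, and 0.66 on chromosome 12 and 0.74 on chromosome 14. All windows at that level had medians of -0.73, -0.43, 0.42 and 0.64 on the same chromosomes. Members with 3 reads or fewer in every alphaTC1 library numbered 148, out of 1371 windows in all, and those with so few in both betaTC3 libraries 62, out of 683. Differences in DNA copy number between the lines and differences in the mark cannot be told apart in these values.

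No member passed the test between the Smndc1 knockdown and the empty vector, where 0.0% of all windows were called by limma. An unadjusted p below 0.05 was seen for 120 upstream members (22.2%) and 274 inside genes (32.9%) by limma, and for 35.0% of all windows. DESeq2 and edgeR called 0 upstream and inside as well, with 46 upstream and 67 inside at an unadjusted p below 0.05 by DESeq2, and 90 and 128 by edgeR. The median log2 change was -0.17 upstream, -0.34 inside, -0.12 past the end and -0.27 over all members, against -0.41 at start windows, -0.15 at distal windows and -0.37 over all windows. The knockdown mean was the lower in 625 of 834 members inside genes and in 339 of 540 upstream. These signs depended on the scaling. DESeq2, edgeR and centred libraries moved the median of all windows from -0.37 to -0.01, 0 and 0, and that of the members to 0.08, 0.09 and 0.11, with the knockdown lower in 556 to 569 of the 1469 in place of 1022. The count changed with 1 library, in a fit where the lone knockdown library left is assumed to vary like the other groups. Without the second knockdown library limma called 232 inside (15 higher, 217 lower) and 79 upstream (14 higher, 65 lower).

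The size of the difference followed the level under the deposited scaling. Members with a mean of at least 300 scaled reads in alphaTC1 had a median log2 change of -0.43, below 0 in 350 of 360 (97.2%), the same median as that of start windows at this level. Between 100 and 300 the median was -0.25 (211 of 260 below 0), and between 30 and 100 it was -0.07 (202 of 351). Below 30 it was near 0: -0.02 with 123 of 237 below 0 at 10 to 30, and -0.04 with 136 of 261 under 10. With DESeq2, edgeR and centred libraries, members under 30 had medians of 0.21, 0.20 and 0.34 and those of at least 300 had -0.06, -0.05 and -0.05, so weak members stayed above strong ones but lay above 0. Distal windows of at least 300 had a median of -0.39. Members inside genes near a listed start of their gene, at -0.42, were close to start windows at a listed start, at -0.41. The knockdown libraries also held the fewest reads of the 6, 4530066 and 4800860 in windows, and the part of depth in this relation was not tested.

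**Figure D5:**
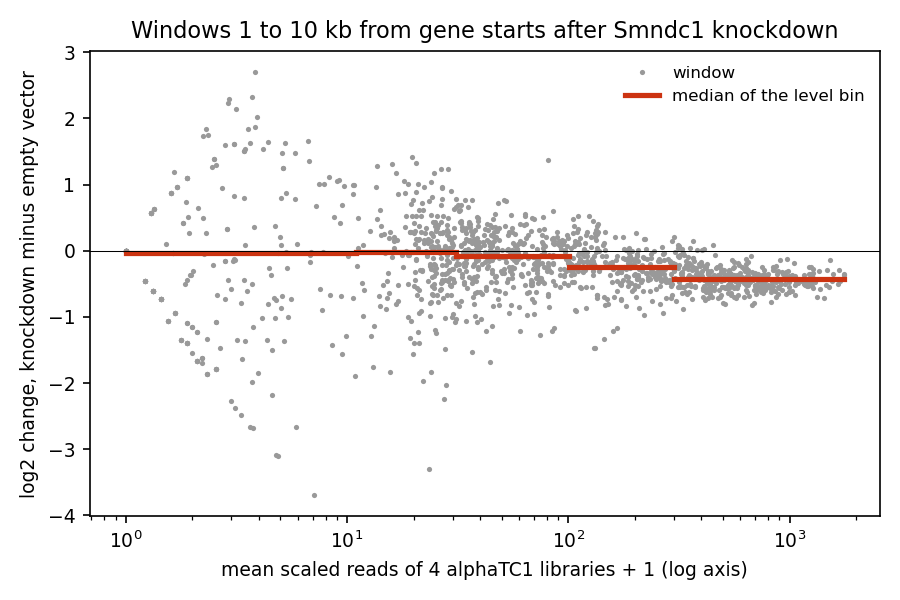
Log2 change between the knockdown and the empty vector (y axis) against the mean level in the 4 alphaTC1 libraries (x axis, scaled reads, log scale), 1 point per member, with the median of each level range in red. The medians lie at -0.04 and -0.02 under 30 scaled reads and fall to -0.25 between 100 and 300 and -0.43 at 300 and above under the deposited scaling; with DESeq2 they were 0.21 under 30 and -0.06 at 300 and above.

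Among the 620 members with a mean of at least 100 in alphaTC1, 561 were lower with the knockdown and 59 higher under the deposited scaling, and none passed (smallest adjusted p = 0.0752 by limma). That one was Ak1, an adenylate kinase (chr2:32625453-32625853, 3895 bp inside). Its window held 207 and 209 (empty vector), 80 and 83.9 (knockdown) and 29.5 and 39 (betaTC3) scaled reads, so the knockdown libraries stood between the other groups (log2 change -1.33 ± 0.20 (SE), adjusted p = 0.0752). Slc25a22, a mitochondrial glutamate carrier, held 489 and 521 (empty vector) and 313 and 307 (knockdown), and Pbx2, a homeobox cofactor, 838 and 881 (empty vector) and 442 and 534 (knockdown). Upstream, Mef2d, a factor of muscle and neuron genes, held 267 and 271 (empty vector) and 125 and 172 (knockdown). Kcnn1, a calcium-activated potassium channel, held 226 and 241 (empty vector) and 133 and 129 (knockdown), and Opn1sw, the short-wavelength opsin, whose window lies 34 bp from a start by the table's gene location, 218 and 214 (empty vector) and 137 and 120.2 (knockdown). These 6 windows were chosen by smallest p among the falls at each position, a choice that favours groups without overlap. In all 6 both knockdown libraries were below both empty-vector libraries, with log2 changes between -1.33 and -0.70 and adjusted p between 0.0752 and 0.117 by limma. Under the deposited scaling the median of all windows was -0.37, so the sizes of falls and rises cannot be compared directly. The windows with the smallest p in the other direction had smaller changes under that scaling. Gaa, the lysosomal alpha-glucosidase, held 80.8 and 96.8 (empty vector) and 150.5 and 109 (knockdown), Gsx1, a homeobox gene of the brain, 95.3 and 106 (empty vector) and 128 and 164 (knockdown), and Sgca, a muscle sarcoglycan, 92.7 and 127 (empty vector) and 155 and 141 (knockdown). Inside genes these were Prkd2, a protein kinase of the D family, at 83.4 and 90.6 (empty vector) and 123 and 120.2 (knockdown), Hapln2, a matrix link protein, at 96.6 and 87 (empty vector) and 122 and 116 (knockdown), and Caly, a vesicle protein of neurons, at 113 and 121 (empty vector) and 143 and 159 (knockdown). Their log2 changes lay between 0.37 and 0.53, with adjusted p between 0.124 and 0.23 by limma. All 12 of these windows kept their sign with DESeq2, edgeR and centred libraries.

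BetaTC3 was also compared with the knockdown, a comparison that shares the betaTC3 libraries with the one above. Of the members, 960 (65.4%) were called by limma, where 60.6% of all windows were, 36.6% higher and 24.0% lower. Upstream 162 were higher in betaTC3 and 184 lower, and inside genes 351 were higher and 207 lower. With edgeR the share of higher calls inside genes moved from 62.9% to 56.4%.

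Levels varied widely on both sides of the limits of 1000 and 10000 bp. Just beyond 1000 bp upstream, Gbgt1 (1013 bp) had group means of 1.33, 0.699 and 136 scaled reads for the empty vector, the knockdown and betaTC3, and Zscan2 (1017 bp, or 171 bp from a start by the table's gene location) had 644, 477 and 392. Just within it, Eef1akmt4 (994 bp) had 806, 639 and 532 and Rtbdn (998 bp) 209.5, 187 and 347. Inside genes, Ptbp2 (1001 bp) had 446, 274 and 843 and Pde3b (1004 bp) 1015, 932 and 808, and on the other side Ccdc71l (997 bp) had 453, 365 and 388 and Baz1a (1000 bp) 529, 410.0 and 995. At the far limit, Fosb (9996 bp upstream) had 85, 94.6 and 65.8 and Ptgis (9978 bp inside) 1.99, 0 and 74.8, next to Rpl24 (10132 bp upstream) with 0.444, 1.19 and 158 and Adgrg1 (10004 bp inside) with 27.4, 23.9 and 10.7.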

How the data were processed

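The 6 antibody libraries and 3 inputs were grouped by their labels. Sequencing gave single reads of 50 bp, per the labels' protocols. Tools listed in the submitters' processing notes are MACS2 2.2.7.1, Picard 2.19.2 and Bowtie2 2.4.1, on mm10 (GRCm38); their settings are not given in the sources here. The authors deposited 1 signal value per library and window. Within a tolerance of 0.001 all values were whole multiples of 1 step per library (0.7986 to 1.398), called reads here; how the factors were made, and whether input was subtracted, is not given. The peak lists, 1 per library, carry the authors' score, their fold ratio over background, a −log10 p-value and a −log10 q-value, of which only position and −log10 q-value were used. Inputs were not analysed separately.

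The signal was tested with limma 3.58.1 (R 4.3.3) on log2(scaled reads + 1), so a fold change of a low window is understated. One mean per group, all 6 libraries, an intensity trend and Benjamini-Hochberg adjustment over 17641 windows were used. Calls needed an adjusted p below 0.05. The script was tested on simulated data. EdgeR 4.0.16 and DESeq2 1.42.0 on the recovered reads, a replicate block, other pseudocounts, filters and left-out libraries were alternatives. A fold against a group at 0 in both libraries uses 3 reads per library as the floor. With 1 to 3 reads it is the ratio of pooled reads with an exact 95% interval.

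Named windows are the 6 with the largest change in each direction and position (at least 100 scaled reads in both libraries of the higher group), the 3 knockdown differences with the smallest p each way (mean of at least 100 in alphaTC1), the 4 strongest, those nearest the limits, up to 3 called members of each gene list with all alpha and beta cell ones, and the 3 genes with most members. Some windows that this rule names are not reported here. Members and lists were chosen with earlier results of these data known. Gabbr1, Barhl1, Pax2, Pfas, Slc29a1 and Arhgef1 were named after their values were seen. No genome was used here, so sequences are RefSeq promoters that overlap windows (GRCm38.p6) and not window sequence; 36 members lie on chromosomes outside that table.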

Additional observations from a re-analysis of the deposited data

How the results depend on the processing

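Between betaTC3 and the empty vector, every alternative and left-out library kept the counts within 1.5 times: 246 to 373 members called upstream and 387 to 611 inside genes (246 to 359 and 387 to 564 with 1 library left out). Between betaTC3 and the knockdown the counts with 1 library left out were 249 to 324 and 377 to 549. Between the knockdown and the empty vector, where limma called 0, the counts upstream and inside were 6 and 14 without the intensity trend, 3 and 4 with only the groups compared, and 15 and 23 with a pseudocount of 0.1. With a mean of at least 20 scaled reads 1 was called inside. With 1 library left out they ran from 0 to 79 upstream and from 0 to 232 inside, the upper values without the second knockdown library. The cause was not tested. A left-out library leaves its group with 1, which is then assumed to vary like the other groups. Of 78 named windows called between the cell lines, leaving out 1 of the 4 libraries compared turned the sign of 0 and moved the fold by over 1.5 times in 22, such as Mafa and Adra2a. Peaks at or above the median −log10 q-value of their list covered, in the order of empty vector, knockdown and betaTC3, 66, 63, 75, 68, 59 and 72 upstream members, 301, 301, 310, 303, 294 and 306 inside and 8, 9, 8, 8, 6 and 8 past the end; fewer peaks enter there by construction. Genes of all types in place of protein-coding ones gave 2719 windows.

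Signs turned for 4 named windows, none of them called between the cell lines: Scrt1, Eif5a, Nkx6-1 and Shox2. Scrt1 came to 0.015 with DESeq2. Eif5a came to 0.15 with DESeq2, 0.0941 with edgeR and 0.0856 with centred libraries. With 1 library left out, Eif5a ranged from -0.36 to 0.17, the Nkx6-1 window from -1.08 to 0.30 and Shox2 from -0.10 to 0.21. In addition, Shox2 came to -0.03 without the first empty-vector library. Of the named windows' values between the cell lines, 748 kept direction and call with all libraries, 13 lost the call and 13 gained it, and with 1 library left out 463 kept both, 53 lost the call and 8 gained it.

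With the replicate number as a block, 342 upstream members and 513 inside were called between betaTC3 and the empty vector, 342 and 526 between betaTC3 and the knockdown, and 0 for the knockdown. Deviations of same-numbered libraries correlated at -0.0079, 0.085 and -0.176, and no label says what a number shares, so no pairing was assumed. With the betaTC3 numbers crossed, the block called 350 and 575 between betaTC3 and the knockdown. A level under 2.396 to 4.19 scaled reads, by library, was below what 3 reads can show.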
